A study of Enchytraeus crypticus with 60 samples.

Results

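The response of the soil worm Enchytraeus crypticus to the silver nanomaterial Ag NM300K after 3 d of exposure was examined in 9 of the 60 arrays of the series. The members were fixed by the labels: 3 arrays of Ag NM300K at EC50, 3 at EC20 and 3 of the dispersant control CTdisp, all sampled at 3 d. EC50 and EC20 are the concentrations in soil that lower reproduction by 50% and 20%. CTdisp was soil carrying only the dispersing agent of Ag NM300K, Tween 20, and no silver, and the treated soils held the same agent. Each array measured total RNA from whole bodies of a pool of 20 adults with a well-developed clitellum, the glandular belt of sexually mature worms. The worms were kept unfed in LUFA 2.2 natural soil. The other arrays of the series cover the same groups at 7 d, and AgNO3, PVP-Coated and Non-Coated silver nanoparticles with their un-spiked control CT at 3 and 7 d. They shared one model with the 9 arrays and served as points of comparison.

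Enchytraeids are small white oligochaete relatives of earthworms that live in the upper soil and feed on decaying matter and microorganisms. Silver nanomaterials in soil can release silver ions. These ions bind thiol groups of proteins and displace other metals from their sites, and animals commonly answer metals with metal-binding proteins such as metallothioneins, with antioxidant enzymes and with chaperones. Whether the probes below belong to such genes is not known here, because the files pair each probe only with the identifier of an assembled contig or of a single sequencing read, and not with a gene name or a sequence. For the same reason the whole-body origin was not checked against marker genes.

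Of 43750 gene probes, 23179 (53.0%) gave a positive and significant signal on all 60 arrays and were tested, 11180 of them on contigs and 11999 on single reads. Values are log2 processed signal after standard-vector condition-decomposition (SVCD) normalization, which shifts each array by 1 offset. The offset is found within each group from all probes, and between groups from probes that vary no more between groups than within them. The median processed signal lay between 14.8 and 22.6 on the 6 Ag NM300K arrays and between 14.4 and 17.8 on the 3 CTdisp arrays. EC20 replicate 3 stood apart in brightness, with 81.4% of its gene probes well above background, against 53.6% to 62.5% on the other 8 arrays. It shared slide 7 with CTdisp replicate 1, and EC50 replicate 3 shared slide 8 with CTdisp replicate 2. Of the 9 arrays, 7 were scanned on 1 day, EC50 replicate 1 on another and CTdisp replicate 3 on one more. Across probes, correlations between arrays of the same group ran from 0.956 to 0.981 and those between arrays of different groups from 0.943 to 0.988. The ranges overlap, so that an array was often as close to arrays of another group as to those of its own.

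Against CTdisp, more probes were under-expressed than over-expressed at either concentration with all arrays and SVCD, a direction that turned under several other settings. At EC50, 424 of 23179 probes (1.83%) passed a false discovery rate (FDR) of 5% in limma, 119 of them over-expressed and 305 under-expressed. At EC20, 336 probes (1.45%) passed, 129 over-expressed and 207 under-expressed. The over-expressed probes rose by a median of 1.48 log2 units at EC50 and 1.36 at EC20, and the under-expressed ones fell by a median of 1.01 at EC50 and 1.04 at EC20. A change of 4-fold or more was reached by 44 of the 424 probes at EC50 and by 49 of the 336 at EC20. Over all 23179 probes the median difference from CTdisp was -0.03 at EC50 and -0.01 at EC20. In RNA from whole bodies, fewer cells of a type and less RNA per cell cannot be told apart. All these tests took the spread between arrays from all 60 arrays. With the compared groups fitted alone, limma called 0 probes at EC50 and 0 at EC20, where 1344 probes at EC50 and 1338 at EC20 had an unadjusted p below 0.05. The over-expressed calls outnumbered the under-expressed ones at EC50 with MedianCD normalization (184 and 143) and without CTdisp replicate 3 (744 and 163), and at EC20 with a stricter filter (171 and 153), without CTdisp replicate 3 (571 and 64) and without EC20 replicate 3 (84 and 79). With the slide as a block, 235 of the 424 calls at EC50 and 177 of the 336 at EC20 were kept.

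The largest falls were on the same 2 probes at both concentrations. The probe of read GYUW2K401DLXG6 had a log2 signal of 4.25, 6.77 and 5.98 at EC50 and of 9.99, 7.85 and 8.85 at EC20, against 12.03, 13.83 and 13.66 in CTdisp. No treated array reached the lowest control array, and no EC50 array reached the lowest EC20 array. The fitted difference from CTdisp was -7.51 ± 0.83 at EC50 (SE, n = 3 each, limma adjusted p = 1.78e-07), a 182-fold lower signal. It was -4.28 ± 0.83 at EC20 (adjusted p = 0.0041), a 19.4-fold lower signal. Within slides, EC50 replicate 3 was 7.85 log2 units below CTdisp replicate 2 and EC20 replicate 3 was 3.17 below CTdisp replicate 1.

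The probe of contig20094 had 5.95, 5.94 and 5.28 at EC50 and 6.87, 6.37 and 6.73 at EC20, against 8.91, 11.04 and 10.04 in CTdisp. The 6 treated arrays lay below all control arrays and close together, while the control arrays were spread more widely. It fell by 4.27 ± 0.62 at EC50 (SE, limma adjusted p = 3.21e-05) and by 3.34 ± 0.62 at EC20 (adjusted p = 0.0025). Both falls kept their call under 24 of 27 alternative settings, and lost it with the compared groups only, with the methods' t-test and on the 9 arrays alone.

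The rises are described for the probes that rose most among those whose treated arrays did not overlap CTdisp at that concentration and which met the terms on spot quality given under the processing. At each concentration 2 probes with a larger fitted rise did not meet these terms. The probe of contig23354 led at both concentrations, with 7.40, 7.42 and 6.78 at EC50 and 7.18, 6.39 and 6.84 at EC20, against 3.37, 1.52 and 6.26 in CTdisp. The treated arrays lay close together, whereas CTdisp replicate 2 was not well above background and CTdisp replicate 3 came close to the lowest treated array. The rise was 3.48 ± 0.71 at EC50 (SE, limma adjusted p = 0.0032) and 3.08 ± 0.71 at EC20 (adjusted p = 0.0171). Without CTdisp replicate 2 the rise at EC20 was 1.82 and no longer passed, and with EC20 replicate 1 or EC20 replicate 3 left out it was 2.95 and 3.06 and did not pass either. With normexp the rise was 1.35 at EC50 and 1.11 at EC20, and with kept offsets and no CTdisp replicate 2 it was 2.38 at EC50 and 1.99 at EC20, and none of these passed.

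The probe of read GYUW2K402JQ1OW, next in size at EC20, had 8.72, 6.41 and 7.76 at EC50 and 8.36, 9.08 and 5.27 at EC20, against 4.46, 4.66 and 4.84 in CTdisp. Here the control arrays were tight and the treated ones wide, with EC20 replicate 3 only slightly above the control arrays. The rise at EC20 was 2.92 ± 0.65 (SE, limma adjusted p = 0.0131) and that at EC50 was 2.98 ± 0.65 (adjusted p = 0.0069). The call at EC20 was lost in 7 of 26 alternative settings, among them normexp, no filter, and EC20 replicate 1 or EC20 replicate 2 left out. The probe of read GYUW2K402F4WTE, next in size at EC50, had 8.01, 5.54 and 6.87 at EC50 and 7.41, 8.14 and 4.63 at EC20, against 3.05, 4.39 and 4.03 in CTdisp. It rose by 2.98 ± 0.60 at EC50 (adjusted p = 0.0029) and by 2.90 ± 0.60 at EC20 (adjusted p = 0.0076). The call at EC50 was lost in 7 of 26 alternative settings, among them the slide as a block (1.89), the arrays of 1 scan day (2.48), CT as the control (1.85) and normexp (1.33). In both of these probes EC50 replicate 2 and EC20 replicate 3 were the lowest arrays of their groups.

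**Figure D1:**
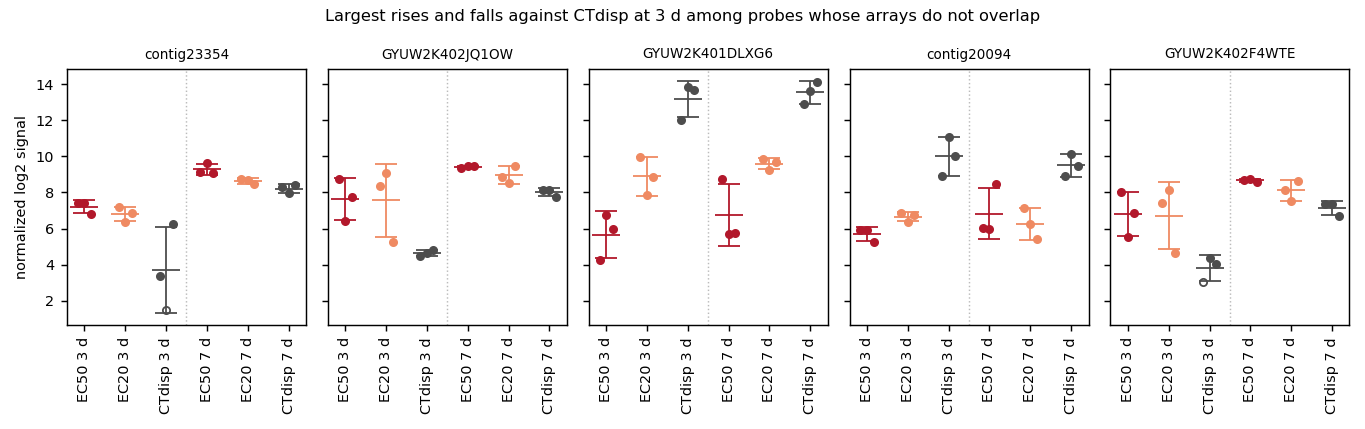
Normalized log2 signal (y axis) of 5 probes with the largest changes against CTdisp at 3 d among probes whose arrays do not overlap, by group (x axis), at 3 d left of the dotted line and at 7 d right of it. Points are arrays (open where not well above background), horizontal marks are means and bars are ± 1 SD of 3 arrays. GYUW2K401DLXG6 and contig20094 lie below CTdisp at 3 d and at 7 d. The other probes are higher in CTdisp at 7 d than in CTdisp at 3 d, with contig23354 near 8 at 7 d.

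Between the concentrations no probe passed. For EC50 minus EC20, 0 of 23179 probes (0%) had an FDR below 5% in limma, and the smallest adjusted p was 0.118. An unadjusted p below 0.05 was found for 1601 probes (6.9%). The median difference was -0.03, and the 95% intervals reached a median of 0.58 log2 units to either side. For 15133 probes (65.3%) the whole interval lay within a 2-fold change in either direction, so that for the remainder a 2-fold difference between the concentrations was not excluded by its interval. The 3 EC50 arrays lay above all 3 EC20 arrays for 582 probes (2.51%) and below them for 1031 probes (4.45%).

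The 4 probes named here had the smallest p in either direction among probes whose EC50 and EC20 arrays did not overlap, and did not pass the 5% FDR. The probe of contig10599 had 5.17, 5.27 and 4.89 at EC50 and 3.90, 3.87 and 4.48 at EC20, beside 5.44, 5.40 and 5.44 in CTdisp. EC50 lay between EC20 and the control, and the difference of EC50 from EC20 was 1.03 (95% interval 0.62 to 1.43, limma adjusted p = 0.118). The probe of contig23091 had 5.36, 6.0 and 5.35 at EC50 and 3.67, 3.1 and 5.11 at EC20, beside 5.44, 5.51 and 5.0 in CTdisp, so that EC20 replicate 3 sat with the controls. Its difference was 1.61 (0.96 to 2.26, adjusted p = 0.118). Both of these probes were under-expressed at EC20 against CTdisp, by 1.34 (limma adjusted p = 0.000186) and 1.36 (adjusted p = 0.0223), and at EC50 neither passed. Their difference between the concentrations passed in 5 of 23 alternative settings each, with MedianCD, with Quantile, with no filter and without EC20 replicate 3 in both, and also without EC50 replicate 3 for contig10599 and without EC50 replicate 1 for contig23091. Without EC20 replicate 3 it was 1.23 for contig10599 and 2.18 for contig23091.

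In the other direction, the probe of read GYUW2K401CPR0A had 1.16, 3.49 and 2.51 at EC50 and 3.92, 4.11 and 5.06 at EC20, beside 3.56, 4.05 and 2.71 in CTdisp. None of the EC50 arrays measured it well above background, so only a bound can be given. Set against the dimmest probes that were well above background there, EC20 was at least 2.22-fold higher than EC50. This bound was not tested. The adjusted p of 0.142 in limma belongs to the fitted difference of EC50 from EC20, which takes the EC50 values as read. The probe of contig01609 had 3.51, 3.81 and 4.30 at EC50 and 4.62, 4.96 and 5.52 at EC20, beside 4.65, 3.68 and 4.11 in CTdisp, and differed by -1.16 (95% interval -1.65 to -0.66, adjusted p = 0.142). These probes passed in 1 of 22 settings each, GYUW2K401CPR0A without EC50 replicate 2 and contig01609 without EC20 replicate 1. For GYUW2K401DLXG6, whose fall was the largest, EC50 was 3.23 ± 0.83 log2 units below EC20 (SE, adjusted p = 0.404).

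**Figure D2:**
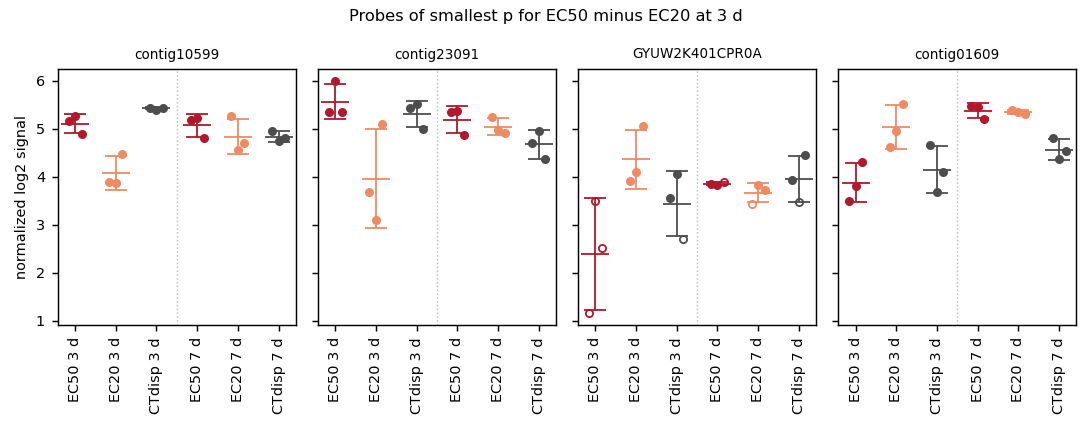
Normalized log2 signal (y axis) of the 4 probes of smallest p for EC50 minus EC20 at 3 d, by group (x axis), at 3 d left of the dotted line and at 7 d right of it. Points are arrays (open where not well above background), horizontal marks are means and bars are ± 1 SD of 3 arrays. EC50 and EC20 do not overlap at 3 d in any of the 4 probes, and none of the differences passed the 5% FDR with all arrays and SVCD.

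The EC50 and EC20 lists overlapped in 154 probes, 45 over-expressed and 109 under-expressed, which is 36.3% of the EC50 list and 45.8% of the EC20 list. All 154 had the same direction. Both comparisons use the same 3 CTdisp arrays, so an unusual control value enters both, and the overlap is given as a count only. Of the 270 probes that passed only at EC50, 199 had an unadjusted p below 0.05 and the same sign at EC20. Of the 182 that passed only at EC20, 127 did so at EC50. Of all 23179 probes, 3113 had an unadjusted p below 0.05 at EC20 and 3087 at EC50, in either direction. The shared CTdisp arrays enter these numbers too, so they are also given as counts only. The median size of EC50 minus EC20 was 0.43 for the 270 and 0.45 for the 182.

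Taking both concentrations as 1 treatment, 6 arrays against 3, 669 probes (2.89%) passed the 5% FDR in limma, 216 over-expressed and 453 under-expressed. Their fold changes ran from 0.42 to 3.74 on the log2 scale among the over-expressed probes, with a median of 1.17, and the under-expressed probes fell by 0.36 to 5.89, with a median of 0.90. All 6 treated arrays lay above the 3 CTdisp arrays for 270 of the 23179 probes (1.16%) and below them for 665 (2.87%). Of the over-expressed probes 92 of 216 (42.6%) had such separate arrays, and of the under-expressed ones 266 of 453 (58.7%). The 669 probes were selected by a test on these same arrays, so these shares are a description only. Within the 216 over-expressed probes EC50 exceeded EC20 in 122 (56.5%), with a median difference of 0.04. Within the 453 under-expressed probes it did so in 189 (41.7%), with a median of -0.07. Over all probes EC50 exceeded EC20 in 46.2%.

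How many probes rose or fell depended on single control arrays. Without CTdisp replicate 3, 964 probes were over-expressed and 160 under-expressed for both concentrations together (85.8% over-expressed), where all arrays gave 32.3%. Without CTdisp replicate 2 the counts were 119 over-expressed and 1602 under-expressed (6.91%), and without CTdisp replicate 1 they were 153 and 290 (34.5%). Leaving out a treated array gave shares between 19.4% and 42.7%. The normalization was found again each time. With the offsets of all arrays kept, 469 probes were over-expressed and 307 under-expressed (60.4%) without CTdisp replicate 3, 118 and 412 (22.3%) without CTdisp replicate 2, and 137 and 326 (29.6%) without CTdisp replicate 1. Among the 7 arrays of the most used scan day, with all offsets kept, 403 were over-expressed and 283 under-expressed (58.7%). Of the 669 probes, 353 kept their call without CTdisp replicate 3, 201 of the 216 over-expressed and 152 of the 453 under-expressed. Without CTdisp replicate 2, 458 kept it, 72 over-expressed and 386 under-expressed. No probe was called in the opposite direction with an array left out.

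**Figure D3:**
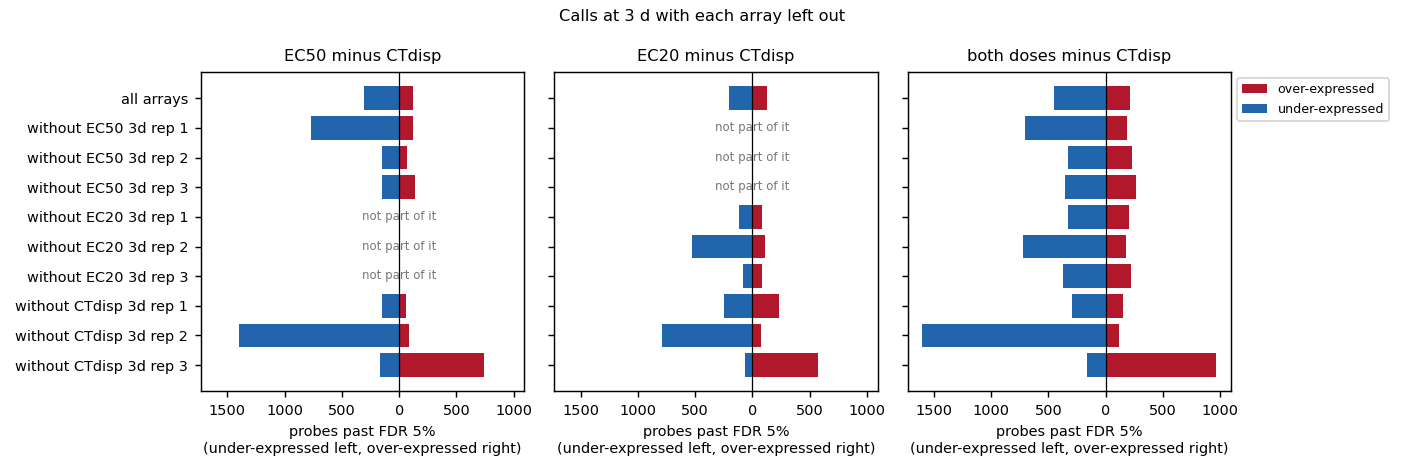
Number of probes past the 5% FDR (x axis, under-expressed to the left of 0 and over-expressed to the right) for EC50, EC20 and both concentrations minus CTdisp at 3 d, with all arrays and with each array left out (y axis). Without CTdisp replicate 3 the over-expressed calls outnumber the under-expressed ones, 964 to 160 for both concentrations, and without CTdisp replicate 2 the under-expressed calls dominate, 1602 to 119.

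The CTdisp arrays also differed from each other by signal level. When probes were ranked by mean signal and cut into 4 classes of equal size, CTdisp replicate 2 lay 0.29 log2 units above the mean of the other CTdisp arrays in the dimmest class and 0.17 below it in the brightest. CTdisp replicate 3 ran the other way, -0.22 in the dimmest class and 0.12 in the brightest, and CTdisp replicate 1 stayed between -0.03 and 0.06 in all 4 classes. Of the treated arrays, EC20 replicate 3 lay 0.32 above the CTdisp mean in the dimmest class and 0.25 below it in the brightest, and the other 5 stayed between -0.12 and 0.06. The direction of the calls at EC20 followed the same order: in the dimmest class 26 were over-expressed and 6 under-expressed, and in the brightest 10 were over-expressed and 102 under-expressed. At EC50 the counts were 17 and 20 in the dimmest class and 27 and 87 in the brightest. The part of these level differences in the calls was not tested. Contigs and single reads gave similar shares of calls for both concentrations together, 353 of 11180 (3.16%) and 316 of 11999 (2.63%).

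**Figure D4:**
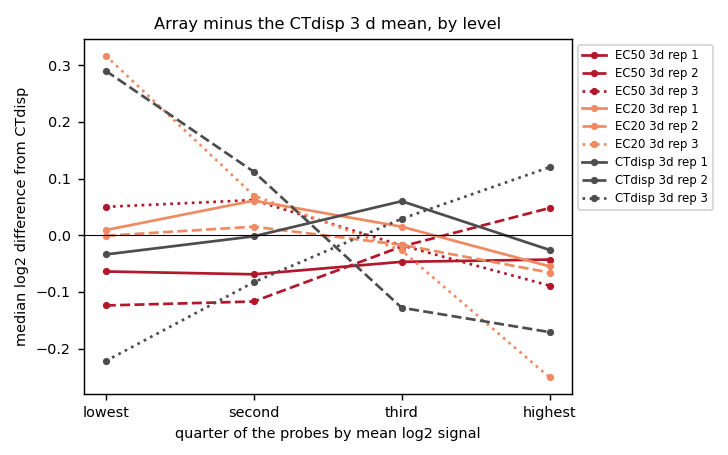
Median log2 difference of each array from the CTdisp 3 d mean (y axis) in 4 classes of probes ranked by mean log2 signal, dimmest to brightest (x axis), where a CTdisp array is set against the other CTdisp arrays. EC20 replicate 3 and CTdisp replicate 2 are high among dim probes (0.32 and 0.29) and low among bright ones (-0.25 and -0.17), and CTdisp replicate 3 runs the other way.

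A smaller set kept its calls whichever of the 9 arrays was left out. The fits used SVCD (the normalization used for all values above), MedianCD, Median, Quantile and 75th percentile normalization. SVCD was also run with each of the 9 arrays left out in turn. In all of these fits 118 of the 669 probes passed, 32 over-expressed and 86 under-expressed. Spike-in scaling, normexp, the other filters, the blocks and CT as the control were not among them. Of the 669 calls, normexp kept 18 over-expressed and 82 under-expressed, and spike-in scaling kept 216 and 52. Normexp therefore kept at most 18 of the 32 and at most 82 of the 86, and spike-in scaling kept at most 52 of the 86. The 32 probes rose by a median of 1.86 log2 units, 1.98 at EC50 and 1.78 at EC20, and the 86 fell by a median of 1.21, by 1.29 at EC50 and 1.15 at EC20. The 6 treated arrays did not overlap the 3 CTdisp arrays in 28 of the 32 and in 78 of the 86. EC50 lay above EC20 in 22 of the 32 and below it in 59 of the 86, where it lay above EC20 in 46.2% of all probes. For EC50 minus EC20, 5 of the 32 and 13 of the 86 had an unadjusted limma p below 0.05, against 6.9% of all probes. The 5 probes described above for their rises and falls were among the 118, as was contig10599. These probes were selected for passing, so their separation is a description. With filter, normalization and model on the 9 arrays alone, limma called 0 probes for both concentrations together, where 1962 had an unadjusted p below 0.05.

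The probes called at 3 d were then read in comparisons whose groups hold none of the 9 arrays. Those other arrays are not independent of the calls, since they entered the filter, the offsets and the spread of the model. For the mean of AgNO3, PVP-Coated and Non-Coated silver at both concentrations minus CT at 3 d, 9351 probes (40.3%) passed the 5% FDR and the median over all probes was 0.35. Of the 216 probes over-expressed under Ag NM300K, 214 were also higher under the other materials, by a median of 1.19, and 180 passed there in the same direction and 0 in the opposite one. Of all 23179 probes 77.6% were higher. Because this comparison shifts with the scaling, the counts were repeated with Median normalization, which puts the median over all probes near 0. With it, 202 of the 216 were higher, against 50.5% of all probes, and 126 passed as over-expressed and 0 as under-expressed, where 7.43% of all probes passed as over-expressed and 3.56% as under-expressed. The 453 under-expressed probes had a median of 0.17 with SVCD, where 33 passed as under-expressed and 153 in the opposite direction. Of all probes 0.63% passed as under-expressed with SVCD and 39.7% as over-expressed. With Median normalization the median of the 453 was -0.18. Of them 64 passed as under-expressed and 25 as over-expressed, where 3.56% and 7.43% of all probes did.

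By material and concentration, the 216 probes exceeded the median of all probes by 0.55 at AgNO3 EC50 and 0.37 at AgNO3 EC20, by 1.12 at PVP-Coated EC50 and 0.95 at PVP-Coated EC20, and by 0.96 at Non-Coated EC50 and 1.13 at Non-Coated EC20, each minus CT. The 453 under-expressed probes lay below the median of all probes in 5 of these 6 groups, by 0.17 to 0.35, and above it by 0.13 at AgNO3 EC20. The 32 over-expressed probes of the smaller set were all higher than CT in 5 groups and in 20 of 32 probes (62.5%) at AgNO3 EC20. Of all probes 67.4% were higher at AgNO3 EC20, and 73.0% to 80.0% in the other 5 groups.

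The same probes were read at 7 d. For both concentrations minus CTdisp at 7 d, 891 probes (3.84%) passed, 735 over-expressed and 156 under-expressed. Of the 216 probes over-expressed at 3 d, 133 (61.6%) were higher at 7 d, where 62.1% of all probes were, and 9 passed as over-expressed and 4 as under-expressed. Of the 453 under-expressed probes 26 passed as under-expressed at 7 d and 14 as over-expressed. Of all probes 0.67% passed as under-expressed and 3.17% as over-expressed. Of the 32 over-expressed probes of the smaller set 30 were higher at 7 d, with a median of 0.69, and 2 passed. Of the 86 under-expressed ones 43 were lower, and 15 passed as under-expressed and 4 as over-expressed. With Median normalization 29 of the 32 were higher and 48 of the 86 lower, where 53.2% of all probes were higher.

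**Figure D5:**
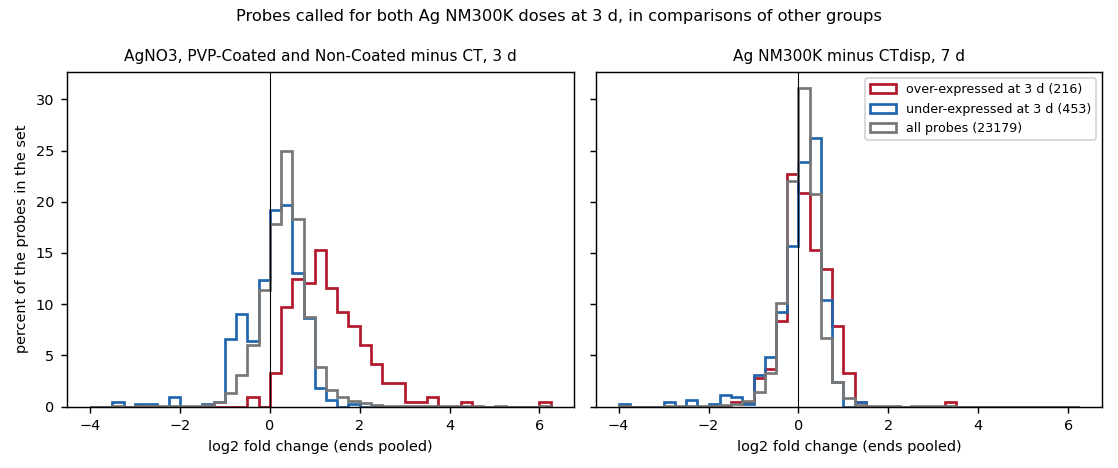
Distribution of log2 fold changes (x axis, in steps of 0.25 with the ends pooled, y axis in percent of each set) for probes over- or under-expressed for both Ag NM300K concentrations at 3 d and for all probes. The left panel shows the other silver materials minus CT at 3 d and the right panel Ag NM300K minus CTdisp at 7 d. The over-expressed set lies to the right of all probes on the left (median 1.19 against 0.35), and the sets lie close together on the right.

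The 2 largest falls were seen in the other silver groups at 3 d as well. GYUW2K401DLXG6 averaged 10.13 ± 0.87 at AgNO3 EC50, 9.0 ± 0.65 at PVP-Coated EC50 and 9.54 ± 0.55 at Non-Coated EC50, against 13.27 ± 0.79 in CT (SD, n = 3 each). For the mean of these materials at both concentrations it fell by 3.44 (limma adjusted p = 5.15e-05). Contig20094 averaged 7.35 ± 0.72 at AgNO3 EC50, 7.49 ± 0.67 at PVP-Coated EC50 and 7.66 ± 0.69 at Non-Coated EC50, against 10.88 ± 1.25 in CT, and fell by 3.41 for the mean of the materials (adjusted p = 1.12e-06). At 7 d of Ag NM300K both were still low. GYUW2K401DLXG6 had 8.73, 5.71 and 5.77 at EC50 and 9.84, 9.25 and 9.68 at EC20, against 12.88, 13.60 and 14.14 in CTdisp, a fall of 5.38 for both concentrations (adjusted p = 2.1e-05). Contig20094 fell by 2.94 at 7 d (adjusted p = 0.00133). Contig23354 was already near 8 in CTdisp at 7 d, with 8.30, 7.96 and 8.40, and its difference from CTdisp of 0.74 did not pass there (adjusted p = 0.606). The 2 other named rises were also high in CTdisp at 7 d, with means of 8.02 for GYUW2K402JQ1OW and 7.14 for GYUW2K402F4WTE. Their differences at 7 d, 1.17 and 1.25, did not pass (limma adjusted p = 0.272 and 0.184). For the mean of the other materials at 3 d, contig23354 rose by 3.57 (limma adjusted p = 4.11e-06). GYUW2K402JQ1OW rose by 2.63 there (adjusted p = 6.96e-05) and GYUW2K402F4WTE by 2.39 (adjusted p = 8.43e-05). At AgNO3 EC20 the last 2 averaged 5.14 and 4.76, against 5.53 and 4.96 in CT. In the other groups of these materials GYUW2K402JQ1OW averaged 8.08 to 9.24 and GYUW2K402F4WTE 7.01 to 8.40.

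The difference between the effects at 3 d and at 7 d was tested directly. For 1102 probes (4.75%) the effect of both concentrations at 3 d differed from that at 7 d, 265 with the higher value at 3 d and 837 with the lower. The split was not stable: it was 270 higher and 308 lower with Median, 288 and 287 with 75th percentile and 338 and 323 with Quantile normalization, 12932 and 16 with spike-in scaling, 75 and 29 with normexp, and 383 and 172 without CTdisp 3 d replicate 3. The effect of Ag NM300K at 3 d against that of the other materials differed for 4686 probes (20.2%), of which 4667 were lower for Ag NM300K, where the median over all probes was -0.38. With Median normalization that number was 170. CTdisp minus CT at 3 d gave 1290 probes (5.57%), 1264 of them higher in CTdisp. This number was 79 with Median, 84 with 75th percentile and 75 with Quantile normalization, 2 with spike-in scaling, 7 with normexp, 0 with the compared groups only and 47 without CTdisp replicate 3.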

How the data were processed

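Total RNA of 60 pools of 20 worms was labelled with Cy3 and hybridised to 1-colour Agilent arrays. The authors extracted the spots with Agilent Feature Extraction 10.7.3.1, and the deposited files hold each spot's processed signal as an intensity, background-corrected and not normalized between arrays. From these, log2 values were taken of the gene probes with a positive, significant signal on each of the 60 arrays, 308 outlier spots were set to missing, and SVCD offsets were found within groups from the 22880 probes with no missing value and between groups from the 6587 of them without variation (Kolmogorov-Smirnov alpha 0.001). Python 3.11.15 and limma 3.58.1 in R 4.3.3 were used, with 1 mean per group over all arrays, moderated tests and Benjamini-Hochberg adjustment at an FDR of 5%. The steps were run on simulated data with independent noise, in which as many probes were raised as lowered. Unbalanced changes and array shifts that depend on the signal level were not simulated. Replicates are pools hybridised once each. Arrays give no counts, so that their number limits the precision.

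For each comparison the text names the 2 probes of largest rise and the 2 of largest fall past the FDR whose arrays did not overlap, had no outlier spot and were well above background in the brighter group. For EC50 minus EC20, where none passed, the probes of smallest p were named. An "at least" fold sets the bright group against the dim group's own signal or, where higher, the dimmest signal well above background, as means of log2 values. Alternatives were other normalizations, normexp background correction, filters, blocks, fits on fewer arrays, the un-spiked control and each array left out. The 9 arrays alone, the scan day alone, offsets kept and the calls kept under several settings together were added after seeing the data. The members and lists were chosen with earlier results of these data known. Lists by gene name were not used, because no gene names were at hand.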

Additional observations from a re-analysis of the deposited data

Results flagged for a closer look

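The effect of both Ag NM300K concentrations differed between 3 d and 7 d for 1102 probes by a test of the difference itself in limma, and it differed from the effect of the other silver materials at 3 d for 4686 probes. Both numbers moved with the normalization, and their values are given under the processing.

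Among the 20571 probes that were not tested because some array of the series gave no significant signal, 31 were well above background on all 6 Ag NM300K arrays and on none of the 3 CTdisp arrays at 3 d. The bound on their difference was at least 2-fold for 9 of the 31, with a median of 1.57. Of the 31, 10 were not well above background on any CT array at 3 d. The others were well above background on some of the silver-free CT arrays, and 0 of the 31 on all of them. The largest was on the probe of contig09942, with 5.74, 6.73 and 4.67 at EC50 and 4.99, 5.47 and 4.42 at EC20, against 2.39, 1.24 and 3.56 in CTdisp, which is at least 4.34-fold higher under Ag NM300K. This probe was not well above background on any CT array at 3 d, but it was on the 3 CTdisp arrays and the 6 Ag NM300K arrays at 7 d. The reverse pattern, dark on all 6 Ag NM300K arrays, was found for 5 probes, led by contig13665 with a signal at least 2.79-fold lower under Ag NM300K. All 5 were also not well above background on any CT array at 3 d.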

How the results depend on the processing

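The number and direction of the calls depended on the arrays and on the processing, and the cause was not tested. At EC50 the 424 calls became 275 with Median normalization, 142 with spike-in scaling, 107 with normexp, 127 with no filter, 1333 with CT as the control, and 0 with the compared groups only, with the methods' t-test (1246 at an unadjusted p below 0.05) and on the 9 arrays alone. With all offsets kept they were 248 without CTdisp replicate 1 and 698 without CTdisp replicate 3. At EC20 the 336 calls became 6088 with spike-in scaling, 18 with normexp, 116 with no filter, 1634 with CT, and 0 with the compared groups only, the methods' t-test (1234 at an unadjusted p below 0.05) and the 9 arrays alone. For both concentrations the 669 became 5009, 102, 297, 2534, 7 and 0 in the order spike-in scaling, normexp, no filter, CT, compared groups only and 9 arrays alone. EC50 minus EC20 gave 3 calls with MedianCD, 3 with Quantile and 4 with no filter.

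Leaving out 1 array gave 203 (without CTdisp replicate 1) to 1487 (without CTdisp replicate 2) calls at EC50, 163 (without EC20 replicate 3) to 869 (without CTdisp replicate 2) at EC20, 443 to 1721 for both and 0 to 55 (without EC50 replicate 1) between the concentrations. The over-expressed share lay between 5.72% and 82.0% at EC50, 8.86% and 89.9% at EC20 and 6.91% and 85.8% for both. Other settings that turned the majority at EC50 were MedianCD (56.3%), spike-in scaling (95.8%), CT (92.5%), the 7 arrays of 1 scan day (51.2%) and kept offsets without CTdisp replicate 3 (60.5%). At EC20 they were spike-in scaling (99.4%), the stricter filter (52.8%), CT (93.0%), the scan day (63.7%), kept offsets (64.3%) and EC20 replicate 3 left out (51.5%). For both they were spike-in scaling (98.96%), compared groups only (57.1%), CT (92.9%), the scan day (58.7%) and kept offsets (60.4%).

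The difference between 3 d and 7 d gave 578 calls with Median, 575 with the 75th percentile, 12948 with spike-in scaling, 661 with Quantile, 104 with normexp, 192 with no filter, 2185 with the slide block, 17 with compared groups only, and 267 to 2588 with 1 array left out. The difference from the other materials gave 170 with Median, 176 with the 75th percentile, 2 with spike-in scaling, 204 with Quantile, 100 with normexp, 529 with no filter, 2258 with compared groups only and 562 to 8590 with 1 array left out. Same-numbered arrays of the groups did not deviate together (correlations between -0.50 and 0.21), so the numbers do not pair them. Of the pairs on 1 slide, EC50 replicate 3 and CTdisp replicate 2 had 0.54, and EC20 replicate 3 and CTdisp replicate 1 had 0.30. The other differently numbered pairs, on different slides, had correlations between -0.37 and 0.43. With the replicate block the calls were 429 at EC50, 324 at EC20, 0 between the concentrations, 659 for both, 1104 for time and 4752 for material.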
